A study of Homo sapiens with 2 samples.

Results

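The miR-183 cluster (miR-183, miR-96 and miR-182) is a group of 3 microRNAs (miRNAs) made from hairpins that lie near each other on chromosome 7. Its members were taken by name, as the guide strands hsa-miR-183-5p, hsa-miR-96-5p and hsa-miR-182-5p, and all 3 were among the 407 miRNAs of the count table. The libraries came from BT549, a human line of breast cancer cells, made to overexpress SNHG15-MS2. SNHG15 is a long non-coding RNA, and its MS2 tag consists of RNA loops bound by the MS2 coat protein (MCP). Lysate of these cells was incubated with amylose resin that carried MCP fused to maltose binding protein (MBP), called the pulldown here, or with amylose resin alone, called the control. Both groups carry the same SNHG15-MS2 overexpression and differ in the MBP-MCP on the resin. Small RNA that stayed on each resin was sequenced, to find miRNAs that associate with SNHG15. No library of MBP-MCP resin without the tagged RNA was used here, so binding to the protein itself and binding through SNHG15 cannot be told apart.

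Each resin gave 1 library, so the differences below have no replicate check and no p-value was computed between the conditions. In all 202560 miRNA reads were counted for the pulldown and 111414 for the control, 1.82 times as many in the pulldown. Levels are therefore given as reads per 1000000 miRNA reads of the library (RPM), and a ratio is the RPM of the pulldown over that of the control. Each interval is an exact 95% interval from the read numbers alone and covers counting error only. Whether reads were reduced to single molecules is not stated, and intervals are too narrow if they were not. A lower share of a library does not show that less of a miRNA was on the resin, since how much RNA each resin held was not analysed here.

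A miRNA guide strand is loaded into an Argonaute protein and pairs with target RNAs mainly through its seed, the stretch of bases near its 5′ end. The hairpins of this cluster are cut from a common primary transcript, and the cluster is known for its high level in sensory cells of the retina and inner ear, where mutations in the seed of miR-96 cause hearing loss. It is often raised in breast and other carcinomas, where miR-96-5p and miR-182-5p repress the transcription factor gene FOXO1. miR-182-5p is also known to repress BRCA1 and FOXO3, and miR-183-5p to repress EGR1.

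The mature sequences are shown because the members are close relatives whose seeds differ at few positions, and because a search of SNHG15 uses those seeds. They are from RefSeq on GRCh38.p14, 5′ to 3′, with bases 2 to 8, the seed, in capitals. miR-1271-5p, from a hairpin on chromosome 5 outside the cluster, is shown beside them because it has the same seed as miR-96-5p. All 4 names sought were matched.
miR-183-5p: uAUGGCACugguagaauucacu
miR-96-5p: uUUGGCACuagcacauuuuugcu
miR-182-5p: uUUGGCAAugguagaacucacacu
miR-1271-5p: cUUGGCACcuagcaagcacuca

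With positions counted from 1 at the 5′ end, the seeds of miR-183-5p and miR-96-5p differ only by A2U, and those of miR-96-5p and miR-182-5p only by C8A. The seeds of miR-183-5p and miR-182-5p differ by both A2U and C8A. Aligned from the 5′ end without gaps, miR-183-5p and miR-182-5p are identical at 18 of 22 positions, so they are much alike past the seed too. miR-96-5p is identical to miR-183-5p at 13 of 22 positions and to miR-182-5p at 12 of 23. Bases 2 to 7 are the same in miR-96-5p, miR-182-5p and miR-1271-5p. The sources used here do not say how reads that match more than 1 miRNA were assigned.

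In GENCODE 29 on GRCh38 all 3 hairpins lie on the minus strand of chromosome 7, so transcription meets MIR183 first, then MIR96 and MIR182. MIR183 runs from 129774905 to 129775014, MIR96 from 129774692 to 129774769 and MIR182 from 129770383 to 129770492. Only 135 bases separate MIR183 from MIR96, while 4199 bases separate MIR96 from MIR182, within a span of 4632 bases. No gene other than the 3 hairpins is annotated over that span. It lies between NRF1, which ends 13.3 kb away, and UBE2H, whose nearer edge is 55.7 kb away on the other side. SNHG15 is on the same chromosome and strand, from 44983023 to 44986961, 84.8 Mb away.

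miR-182-5p was the most abundant member, with 529 pulldown reads and 241 control reads. On the RPM scale its level was 2612 (2394 to 2844) in the pulldown and 2163 (1899 to 2454) in the control. Among the 407 miRNAs it ranked 36 by pulldown reads and 44 by control reads. miR-182-5p was thus 1.21-fold higher in the pulldown library, with a counting interval of 1.03 to 1.41.

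For miR-183-5p, 280 reads were counted in the pulldown and 112 in the control. Its level was 1382 RPM (1225 to 1554) in the pulldown and 1005 RPM (828 to 1210) in the control, and its rank was 49 and 54. At an equal share of both libraries, 280 pulldown reads would go with 154 control reads. The ratio of miR-183-5p was 1.38, with a counting interval of 1.10 to 1.73, and the RPM intervals of the libraries did not overlap.

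miR-96-5p was far less abundant than its neighbours, with 18 reads in each library. Its level was 88.9 RPM (52.7 to 140) in the pulldown and 162 RPM (95.8 to 255) in the control, and it ranked 167 and 136. Its share of the pulldown library was 1.82-fold lower, but the interval of 0.892-fold to 3.70-fold lower includes equality, so no difference was detectable at this depth. The guide strands thus stood in the order miR-182-5p, miR-183-5p, miR-96-5p in both libraries, with no overlap of their RPM intervals within a library. One read covers a whole miRNA, so these levels carry no length term. Whether library preparation captured each miRNA alike was not analysed here, so this is an order of reads and may not be that of molecules. That order is not the order of the hairpins along the transcript, where MIR96 is the middle one.

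**Figure D1:**
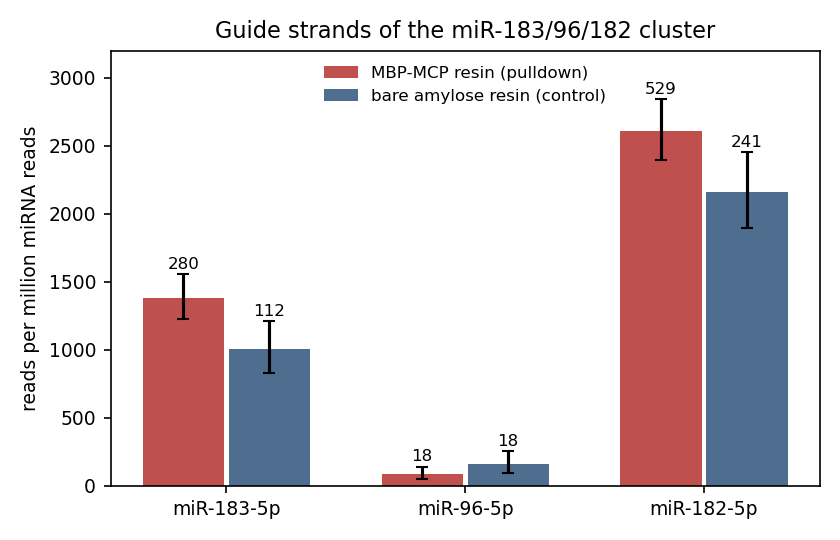
Bars give the level of each guide strand in RPM, in the pulldown library (red) and the control library (blue), with exact 95% Poisson intervals for counting error and the read number above each bar. miR-183-5p and miR-182-5p are higher in the pulldown library, and miR-96-5p, with 18 reads in each library, is low in both.

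Summed over the members, the cluster had 827 pulldown reads and 371 control reads. That is 0.408% (0.381 to 0.437) of the pulldown reads and 0.333% (0.300 to 0.369) of the control reads, by exact Clopper-Pearson intervals. The ratio of the summed reads was 1.23 (1.08 to 1.39). miR-182-5p made up 64.0% (60.6 to 67.2) of the cluster's reads in the pulldown and 65.0% (59.9 to 69.8) in the control. miR-183-5p made up 33.9% (30.6 to 37.2) and 30.2% (25.6 to 35.1). The share of miR-96-5p was 2.18% (1.29 to 3.42) in the pulldown and 4.85% (2.90 to 7.56) in the control.

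Ratios between members within a library do not depend on how the libraries are scaled. miR-183-5p had 0.529 reads for each read of miR-182-5p in the pulldown and 0.465 in the control. This within-library ratio was 1.14 times as high in the pulldown, with an exact conditional interval of 0.866 to 1.50, so the proportion of the abundant members did not differ beyond counting error. miR-96-5p had 0.0222 reads for each read of the other members together in the pulldown and 0.0510 in the control. That ratio in the pulldown was 0.436 times that in the control (0.212 to 0.901), a difference larger than counting error between these 2 libraries. The interval excluded equality against miR-183-5p alone (0.400, 0.189 to 0.850) and against miR-182-5p alone (0.456, 0.220 to 0.947). This comparison of miR-96-5p was chosen after its reads were seen and rests on 18 reads in each library.

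To call a miRNA by size, a ratio of at least 2 was asked of the 161 miRNAs that had 20 or more reads in either library. Of these, 2.48% were called higher in the pulldown and 3.11% lower, and of the 2 members with that many reads, miR-183-5p and miR-182-5p, 0 were called either way. The softer call, a counting interval wholly above 1, was met by 11.2% of the 161 and by both of those members. An interval wholly below 1 was found for 23.6% of the 161 and for neither member. Members with more reads have narrower intervals. Among the 95 known miRNAs that had 50 or more reads in either library, 15.8% met it. Of those 95, 3 had a higher log2 ratio than miR-183-5p and 11 a higher one than miR-182-5p. With 2 members no more can be said of the cluster from these shares.

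The log2 ratio, computed with a prior count of 0.5, was 0.46 for miR-183-5p, 0.27 for miR-182-5p and −0.84 for miR-96-5p. The median of the 161 miRNAs was −0.16, so the abundant members lay 0.61 and 0.43 above it. miR-96-5p lay below that median by 0.68, within its counting error. Of the 68 other known miRNAs with 10 to 30 reads in their larger library, a range chosen after the values were seen, 40 had a ratio below 1 and 11 a log2 ratio at or below that of miR-96-5p. Their median log2 ratio was −0.22. Because the range was set on the larger library, some of these had fewer reads in all than miR-96-5p and scatter more. miR-148a-3p, with 5 pulldown and 11 control reads, is an example. How rare such a value is at the depth of miR-96-5p was therefore not shown.

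**Figure D2:**
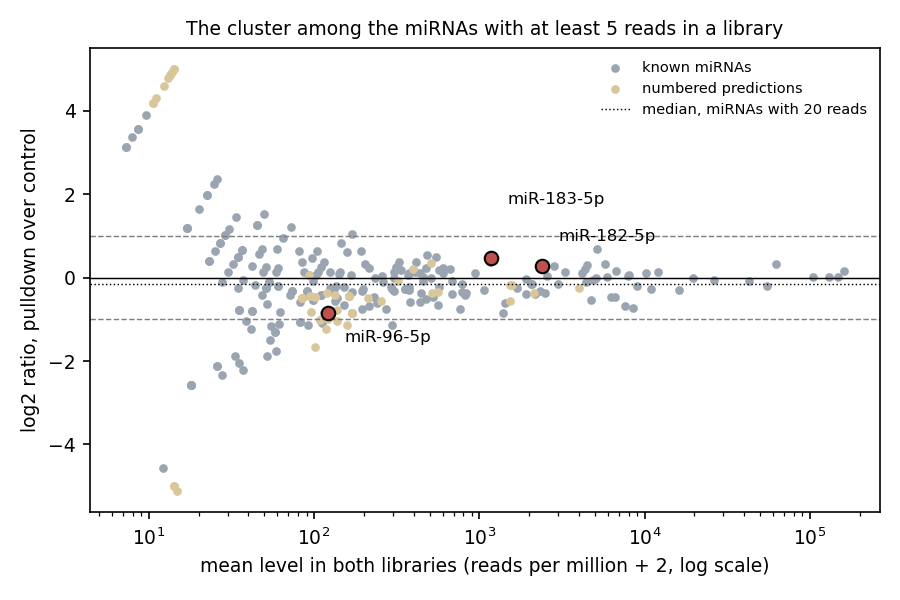
Each point is a miRNA that had 5 or more reads in either library, placed by its mean level in both libraries (log scale) and its log2 ratio of pulldown over control. Dashed lines mark 2-fold and the dotted line the median of −0.16; miR-183-5p and miR-182-5p (red) lie above 0 among well covered miRNAs, and miR-96-5p below 0 where ratios scatter widely.

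The authors' deposited table gives log2 fold changes of 0.46 for miR-183-5p, 0.27 for miR-182-5p and −0.86 for miR-96-5p, and calls none of them different. In the authors' deposited table miR-183-5p has an edgeR p of 0.0125 and an adjusted p of 0.259, and miR-182-5p has a p of 0.0465 and an adjusted p of 0.485. For miR-96-5p the authors' deposited table has a p of 0.283 and an adjusted p of 0.849. A p under 0.05 with a higher value in the pulldown was found in 6.39% of the 407 miRNAs of the authors' deposited table, and 3.93% were called higher. These p-values were matched by edgeR's exact test with its trimmed mean of M-values (TMM) scaling factors, to within 6.11e-15 in log10 p. The test assumed a coefficient of variation of 0.1 between replicates, so the p-values contain no measured replicate spread. The deposited log2 fold changes are those of RPM, without these factors. Each p, and the share of 6.39%, thus sets a test under TMM scaling beside a size or direction from RPM.

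The direction of the members was the same under every scaling tried, while their size was not. With edgeR's TMM factors the log2 ratio of miR-183-5p was 0.65 and that of miR-182-5p 0.47. With DESeq2 size factors these were 0.73 and 0.55. The same factors raised the median of the 161 miRNAs by 0.19 and 0.28, which is as much as the members moved. The share of all 161 miRNAs with an interval above 1 rose as well, to 22.4% and 27.3% with those factors. miR-96-5p stayed below 0, at −0.65 and −0.57 in turn, with intervals that included 0.

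**Figure D3:**
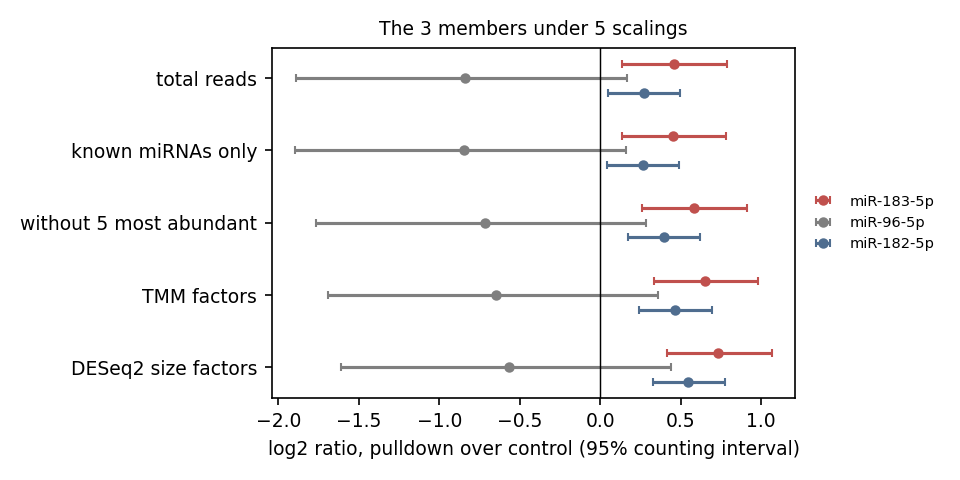
Points give the log2 ratio of pulldown over control for the 3 guide strands under 5 ways of scaling the libraries, with 95% counting intervals. Those of miR-183-5p and miR-182-5p lie above 0 in each row, and those of miR-96-5p include 0 in each row.

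The cluster was set beside 3 other groups of guide strands that share a primary transcript. The cluster of miR-221 and miR-222, which repress the cell cycle inhibitor gene CDKN1B, had 1065 reads in the pulldown and 481 in the control, an abundance close to that of the miR-183 cluster. Reads of the miR-183 cluster per read of miR-221-3p and miR-222-3p were 0.777 in the pulldown and 0.771 in the control, a ratio of 1.01 (0.853 to 1.19). Against miR-191-5p and miR-425-5p, from an intron of DALRD3, the cluster was 1.27 times higher in the pulldown (1.11 to 1.45). Against the cluster of miR-106b-5p, miR-93-5p and miR-25-3p, from an intron of MCM7, it was 1.20 times higher (1.05 to 1.37). The cluster thus stood above the last 2 of these groups by more than counting error and could not be told apart from miR-221-3p and miR-222-3p.

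Members of the other groups also had unequal ratios. For miR-221-3p 1014 and 451 reads gave a ratio of 1.24 (1.11 to 1.38), while miR-222-3p, with 51 against 30 reads, had 0.935 (0.584 to 1.52). As in the miR-183 cluster, the member with few reads had the lower ratio, but the reads of miR-222-3p per read of miR-221-3p did not differ between the libraries beyond counting error (0.756, 0.466 to 1.25). In the pair of miR-191 and miR-425 the member with few reads had the higher ratio, 1.10 (0.754 to 1.63) for miR-425-5p and 0.962 (0.920 to 1.01) for miR-191-5p, and the within-library ratio of 1.14 (0.781 to 1.69) included equality. In the cluster of miR-106b, miR-25-3p stood 1.13 times higher relative to miR-93-5p in the pulldown (1.02 to 1.26), and the low member, miR-106b-5p, had 15 against 5 reads and a ratio of 1.65 (0.570 to 5.80). The reads of miR-25-3p and of miR-93-5p per read of miR-106b-5p did not differ beyond counting error (0.679, 0.192 to 1.98, and 0.600, 0.170 to 1.74). In these other groups a difference beyond counting error was therefore seen only between miR-25-3p and miR-93-5p. It was smaller than that of miR-96-5p to the other members of its cluster (0.436).

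**Figure D4:**
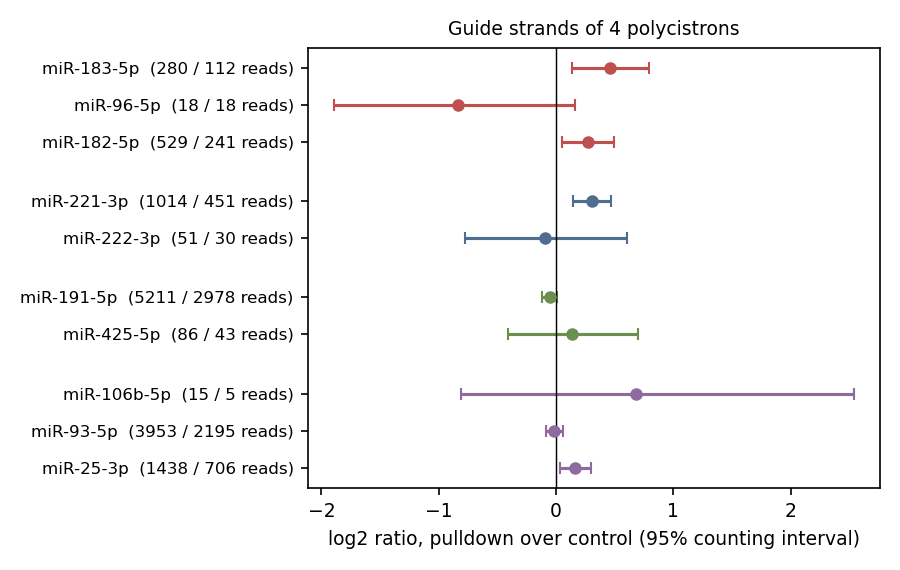
Points give the log2 ratio of pulldown over control for the guide strands of 4 primary transcripts, with 95% counting intervals and read numbers (pulldown / control) in the labels. miR-183-5p, miR-182-5p, miR-221-3p and miR-25-3p have intervals above 0, and the interval of miR-96-5p is wide and includes 0.

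The other arms of the hairpins, miR-183-3p, miR-96-3p and miR-182-3p, were not listed in the table, whose lowest sum over both libraries was 2 reads. miR-1271-5p, which shares the seed of miR-96-5p, had 5 reads in each library and a ratio of 0.550 (0.127 to 2.39), too few reads to show a difference.

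The cluster is often grouped with miRNAs enriched in epithelial cells, so 8 others of that kind were read from the same libraries. Of these, 2 were in the table: miR-200a-3p, of the family that represses the ZEB1 and ZEB2 genes, and miR-203a-3p, known from skin, had 1 read each in both libraries. miR-200b-3p, miR-200c-3p, miR-141-3p, miR-429, miR-205-5p and miR-375 were not listed. The cluster, at 4083 RPM in the pulldown and 3330 RPM in the control, was thus present with these epithelial miRNAs at or near 0. Of 7 mesenchymal miRNAs, 3 were in the table. miR-100-5p had 1202 pulldown and 652 control reads, a ratio of 1.01 (0.921 to 1.12). miR-143-3p had 90 and 78, a ratio of 0.635 (0.463 to 0.871), and miR-199a-3p 1 and 1.

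By the distance of their log2 ratio from that of the summed cluster, 0.29, the 5 nearest of the known miRNAs with at least 50 reads were miR-196a-5p, miR-221-3p, let-7b-5p, miR-10a-5p and miR-941. Their log2 ratios ran from 0.24 to 0.33. miR-196a-5p, from a HOX gene cluster, was nearest, its 629 pulldown and 284 control reads giving a ratio of 1.22 (1.06 to 1.41). This likeness is over 2 libraries and 1 ratio.

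SNHG15 was searched for bases that pair with the seeds. The 7-base matches to bases 2 to 8, searched on the transcript's own strand, are GTGCCAT for miR-183-5p, GTGCCAA for miR-96-5p and TTGCCAA for miR-182-5p, and transcript SNHG15-203 of GENCODE 29, 982 bases long, held 0 of them. In the first 982 bases of the 8545 lncRNA transcripts at least that long, 5.92% held the match of miR-183-5p, 4.74% that of miR-96-5p and 7.09% that of miR-182-5p. The sources used here do not name the isoform in the construct, so the 10 annotated transcripts were all searched. The longest, SNHG15-202, with 3116 bases, held the 7-base match of miR-183-5p at bases 1306 to 1312, and no other transcript held a 7-base match of a member. In the first 3116 bases of the 1425 lncRNA transcripts at least that long, 16.8% held that match.

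A shorter match of 6 bases, to bases 2 to 7, was found for miR-183-5p (TGCCAT) in 9 of the 10 transcripts, at bases 566 to 571 of SNHG15-203. All 9 hold it in the same 26 bases, so this is 1 site in overlapping transcripts and not 9 separate ones. It is held by 26.5% of the lncRNA windows of 982 bases. The 6-base match that miR-96-5p and miR-182-5p share (TGCCAA), held by 25.1% of those windows, was in 0 of the 10 transcripts. The motif TGCCAT lies inside GTGCCAT, so the 7-base site in SNHG15-202 is counted in both searches. Both sites are shown because they are the only distinct sites found for a member, with the match in capitals and 10 bases on each side.
SNHG15-202, 7-base match of miR-183-5p: gtatagatccGTGCCATctaatgtggt
SNHG15-203, 6-base match of miR-183-5p: caagagtgccTGCCATccgtcagtgt

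These matches are a description of letters and show neither binding nor its absence. miR-183-5p, with the only matches, had a ratio of 1.38. miR-182-5p, with no match in an annotated transcript, had 1.21, and the within-library proportion of these members did not differ beyond counting error. miR-96-5p, also with no match, had 0.550 (0.270 to 1.12) from 18 reads in each library. Its reads per read of miR-183-5p in the pulldown were 0.400 times those in the control (0.189 to 0.850). That comparison was chosen after the reads were seen. A link between match and ratio was not tested.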

How the data were processed

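miRNA sequencing was done on RNA from 2 resins, with 1 library each, grouped by their treatment label. The labels' protocols name the mirVana kit for RNA and the QIAseq kit for libraries, and the submitters' processing notes name build GRCh38. The aligner, the miRNA annotation and whether molecular identifiers were counted were not given in the sources used here. Raw read counts of 407 miRNAs, 357 known and 50 numbered predictions, were deposited by the authors. The column headed Tpm in the deposited table holds reads per 1000000 reads (RPM), within a relative difference of 4.8e-04 of those computed from the counts. The deposited log2 fold changes, p-values, q-values and calls quoted here are the authors', per the file headers. Other lists of called miRNAs by the authors were not used.

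From the counts, ratios scaled by total reads were computed with exact conditional binomial intervals (scipy 1.17.1). Scaling factors came from edgeR 4.0.16 and DESeq2 1.42.0. Within-library ratios have exact conditional odds ratio intervals. The 2-fold rule with 20 reads stood in for a test. In 50 simulated pairs of pulldown and control libraries with 407 miRNAs, 200 of them changed, 96.1% of intervals held the true ratio. The simulated reads had counting error only and a known library scale, which is what the interval assumes. This checks the computation and says nothing of replicate spread, repeated reads or scaling. Named miRNAs were the members, their other arms, miR-1271-5p, the epithelial, mesenchymal and comparator lists and the 5 nearest in log2 ratio. Members and lists were chosen with earlier results of these data known. There were 0 columns of other samples.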

Additional observations from a re-analysis of the deposited data

How the results depend on the processing

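The libraries were also scaled by DESeq2 size factors, by TMM factors, by totals lacking the 5 most abundant miRNAs and by known miRNAs only, with a prior count of 5 and other read minimums. The log2 ratios of miR-183-5p, miR-182-5p and the summed cluster stayed above 0 and that of miR-96-5p below 0 under each. That of miR-182-5p was 0.55 with DESeq2 size factors, against 0.27, and that of the sum 0.57, or 0.49 with TMM factors, against 0.29. The number of members at least 2-fold higher was 0, and with an interval above 1 it was 2, under each scaling and read minimum. Over all miRNAs, those with an interval above 1 numbered 18, or 36 with TMM factors, 44 with DESeq2 size factors and 28 without the 5 most abundant. Those at least 2-fold higher numbered 4, or 0 with at least 50 reads and 79 with no read minimum. Seed matches in SNHG15-203 numbered 0, or 1 with 6 bases, and 1 annotated transcript held a 7-base match. With a prior count of 5, chosen after seeing the data, the proportion of miR-96-5p to the other members was 0.496, against 0.436. Counting error limits miR-96-5p most. No paired analysis was possible because each group has 1 library.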

Other observations

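miR-96-5p had the same number of reads, 18, in both libraries, although the pulldown library was 1.82 times as deep. Among 230 miRNAs that reached 10 reads in either library, 9 had equal read numbers in both, 3 of 180 known miRNAs and 6 of 50 numbered predictions. Several of those predictions had the same number, 25 reads in each library. miR-96-5p was 1 of the 3 known miRNAs, with miR-29c-3p at 209 reads and miR-532-3p at 17 reads in each library.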
